A study of Mus musculus with 12 samples.

Results

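The 6 microRNA (miRNA) entries described here stand for miRNAs of mesenchymal liver cells, the hepatic stellate cells, portal fibroblasts and vascular smooth muscle cells. On the array they are named mmu-miR-143, mmu-miR-145, mmu-miR-199a-3p, mmu-miR-199a-5p, mmu-miR-199b* and mmu-miR-214, the prefix standing for mouse. The rule takes them by name from the 650 entries of an Agilent miRNA array and uses no measured value, but it was written with earlier results of these data known. The array was hybridised with Cy3-labelled total RNA of mouse liver. All groups were adult mice on a daily cycle of 12 h light and 12 h dark, fed and watered freely, and no other treatment is given; strain and sex are not given in the sources used here. Zeitgeber time (ZT) counts hours from a lights-on, and livers were collected every 4 h from ZT18 to ZT62. Livers of a time were mixed in equal RNA amounts, 2 livers to a pool, and each of the 12 pools had 1 array. The dark pools were ZT18, ZT22, ZT38, ZT42, ZT46 and ZT62, and the light pools ZT26, ZT30, ZT34, ZT50, ZT54 and ZT58. Each of the 6 clock times (2, 6, 10, 14, 18 and 22 h after lights on) was sampled in cycle 2 and, 24 h earlier, in cycle 1.

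A miRNA is cut from a hairpin and guides repression of messenger RNAs that pair with its seed, bases 2 to 8. miR-143 and miR-145 come from one transcript of smooth muscle cells and fibroblasts and keep smooth muscle cells in their contractile state. miR-199a and miR-214 share the long non-coding transcript Dnm3os, made by fibroblasts, and both have been reported to increase when stellate cells turn into collagen-producing myofibroblasts. Liver is made mostly of hepatocytes, so these RNAs come from a small share of its cells. In such bulk RNA, fewer cells of a type and less RNA per cell cannot be told apart.

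The sequences of the miR-199a and miR-214 entries are shown because they decide what the probes can tell apart. Of the 6 entries, 3 had a mature sequence in the RefSeq table (build GRCm38.p6), given here 5′ to 3′ with the seed in capitals.
miR-199a-5p: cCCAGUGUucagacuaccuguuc
miR-199a-3p: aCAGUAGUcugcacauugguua
miR-214: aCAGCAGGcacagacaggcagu
The 3 seeds differ. Those of miR-199a-3p and miR-214 have 5 of 7 letters in common by position, and those of the 2 arms of miR-199a have 3. miR-199b-3p has the same sequence as miR-199a-3p, so the entry miR-199a-3p stands for the products of Mir199a-1, Mir199a-2 and Mir199b together. The entry miR-199a-5p stands for the products of Mir199a-1 and Mir199a-2. By older miRNA naming, miR-199b* is the other arm of the Mir199b hairpin, a relative of miR-199a-5p, and the entry miR-214 is matched here to RefSeq's miR-214-3p. No probe sequences were used to check these matches, and how far the probes of miR-199b* also bind miR-199a-5p was not tested.

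Both arms of miR-199a leave the same hairpin, and Mir214 lies 5444 bases beyond it on the same strand. The hairpins are printed with their mature arms in capitals, the 5p arm first.
Mir199a-2: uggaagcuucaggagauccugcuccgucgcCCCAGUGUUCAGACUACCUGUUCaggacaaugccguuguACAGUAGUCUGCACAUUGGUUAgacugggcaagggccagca
Mir214: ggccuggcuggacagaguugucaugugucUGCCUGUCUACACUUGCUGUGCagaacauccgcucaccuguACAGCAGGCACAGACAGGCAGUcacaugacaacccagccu
Mir199a-2 (GRCm38.p6 chr1:162217814-162217923, plus strand) and Mir214 (chr1:162223368-162223477, plus strand) lie within the span of the protein-coding gene Dnm3 and of the long non-coding RNA gene Dnm3os. Mir199a-1 (chr9:21496495-21496564, minus strand) lies within Dnm2, and Mir199b (chr2:32318460-32318569, plus strand) within Dnm1. Dnm1, Dnm2 and Dnm3 encode the dynamins, enzymes that pinch vesicles off membranes. Mir143 and Mir145a lie within the long non-coding RNA gene Carmn.

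The arrays were alike in depth. The share of spots well above background was 16.5% to 19.6%, 132 to 162 entries were called detected, 0 spots were saturated and scaling factors lay between 0.8654 and 1.099. With 12 arrays, that number sets the precision. The arrays stood on 2 slides, ZT18 to ZT46 on slide 1 and the 4 later ones on slide 2, where the negative control spots scattered more (SD 5.12 to 9.74 intensity units on slide 2, against 2.81 to 4.68 on slide 1). Hepatocytes were well represented: miR-122, their most abundant miRNA, averaged 31500 units. The pools of a clock time were collected 24 h apart, so p-values measure the spread between pools of 2 livers, not between mice. One array has to be named before the results. At ZT22 all 4 members that could be tested had their highest value, and the spread, correlations and comparisons by time are therefore also given without this array.

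Of the 6 members, 4 were measurable and 2 were not. miR-143, miR-199a-3p, miR-199a-5p and miR-199b* were called detected by the scanner software on all 12 arrays. miR-214 was called detected on 1 array, ZT22, and miR-145 on 0, so neither entered a test. The tests took the 139 entries called detected on 6 arrays or more. The label of the group thus rests on 4 members, and 1 defining miRNA of smooth muscle, miR-145, was not detected.

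mmu-miR-199a-3p, the 3′ arm of the miR-199a hairpin, was well above background on every array. Its lowest, median and highest scaled intensities over the 12 arrays were 98.9, 112 and 149 units, with a mean of 115 ± 13.8 (SD, n = 12 pools). All 109 spots of its brighter probe that passed the outlier filter lay well above background. mmu-miR-143, the partner of miR-145 in smooth muscle, measured 36, 42.8 and 62.7 units (lowest, median and highest), with a mean of 43.8 ± 7.26 (SD, n = 12), and 96 of its 104 spots were well above background. mmu-miR-199a-5p, the 5′ arm of the same hairpin, measured 31.7, 36.4 and 46.5 units, with a mean of 37.1 ± 3.95 (SD, n = 12) and 101 of 113 spots. mmu-miR-199b* measured 22.6, 29 and 48.5 units, with a mean of 30.3 ± 6.78 (SD, n = 12), and 74 of its 109 spots were well above background. Its lowest value, at ZT62, lay just over the floor of 22.2 units that was set on every array before log2 was taken, and 0 of 9 spots were well above background there. Intensities depend on the probe, so the members' levels are not ranked against each other.

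Detection was weaker on slide 2. For miR-199b*, 30.6% of spots were well above background on slide 2 and 86.3% on slide 1; for miR-199a-5p the shares were 69.4% and 98.7%, and for miR-143 81.8% and 97.2%. miR-199a-3p had 100% on both. More than 50% of a probe's spots were well above background on 12 arrays for miR-199a-3p, on 11 each for miR-143 and miR-199a-5p, and on 8 for miR-199b*.

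miR-145 and miR-214 stayed near the negative controls. The brighter probe of mmu-miR-145 measured between 3.71 and 9.57 units, and 1 of its 114 spots was well above background. The brighter probe of mmu-miR-214, whose hairpin follows Mir199a-2, measured between 6.58 and 13.8 units, also with 1 of 113 spots. The highest mean of any negative control probe was 3.62 to 18.6 units on these arrays, so neither entry stood above that level throughout. The star arms miR-145* and miR-214* were detected on 0 arrays. Among these dim values no order can be read, and no statement on the absence of miR-145 or miR-214 from liver follows, since probes differ in sensitivity.

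**Figure D1:**
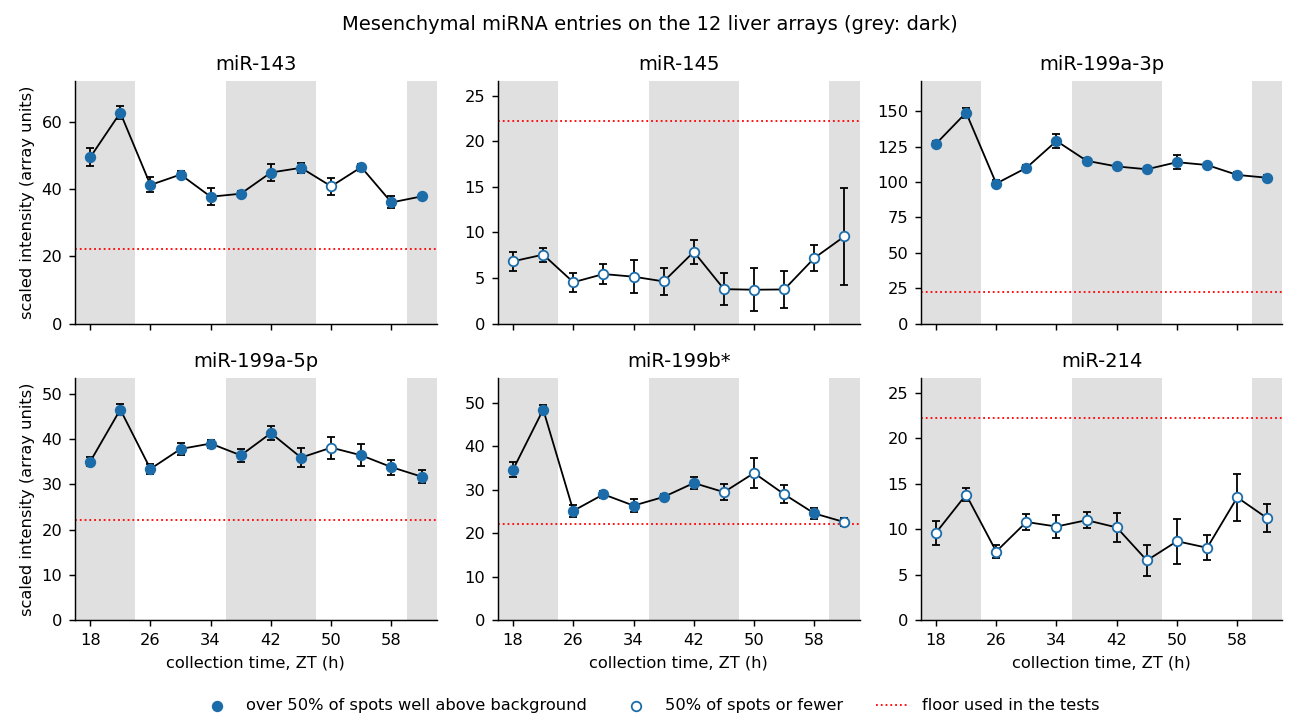
Scaled intensity (array units, from 0, own axis per panel) of the brighter probe of each of the 6 members against collection time (ZT, h), with bars of 1 SE over its spots on that array. Filled points have over 50% of spots well above background, the dotted line is the floor of 22.2 units and grey marks dark. miR-143, miR-199a-3p, miR-199a-5p and miR-199b* are highest at ZT22 (62.7, 149, 46.5 and 48.5 units), and miR-145 and miR-214 lie below the floor on every array.

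The 2 probes of an entry check whether a pattern follows the miRNA or the probe. For miR-199a-3p the dimmer probe averaged 61 ± 7.26 units (SD, n = 12) and followed the brighter one over the arrays, with r = 0.90 (permutation p = 0.00022, adjusted 0.00056 over the 4 members) and rho = 0.79 (permutation p = 0.00336). For miR-143 r was 0.86 (permutation p = 0.00235, adjusted 0.00313) and rho 0.77 (permutation p = 0.00489), and for miR-199b* r was 0.90 (permutation p = 0.00028, adjusted 0.00056) and rho 0.84 (permutation p = 0.00126). Both probes of each of these 3 miRNAs were highest at ZT22. The second probe of miR-199b* was dim, however, with a mean of 8.02 units and 3 of 110 spots well above background, within the range of the highest negative control probes. Without the 2 arrays farthest from the median r was 0.67 for miR-199a-3p, 0.78 for miR-143 and 0.70 for miR-199b*, and without ZT22 it was 0.76, 0.61 and 0.76. The second probe of miR-199a-5p had 0 of 109 spots well above background and did not follow the first (r = 0.24, permutation p = 0.462; rho = 0.26, permutation p = 0.42; r = -0.03 without the 2 farthest arrays). Its highest value was at ZT62.

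The SE over spots, which leaves out labelling and hybridisation, was typically 2.06% of the level for miR-199a-3p, 3.95% for miR-199a-5p, 4.09% for miR-143 and 5.08% for miR-199b*, and the SD between pools was 11.9%, 10.6%, 16.6% and 22.4% of the mean. Without ZT22 that SD was 8.18% for miR-199a-3p, 7.58% for miR-199a-5p, 10.4% for miR-143 and 13.2% for miR-199b*, so much of the spread came from 1 pool. On the log2 scale the SDs between pools were 0.16, 0.15, 0.22 and 0.29, against a median of 0.10 over all 139 tested entries. Dim entries vary more: the 45 other entries with a mean between 29.7 and 114 units that were never at the floor had a median SD of 0.13, from 0.06 to 0.35. Among all tested entries, the SD of miR-199b* ranked 13 from the highest, and those of miR-143, miR-199a-3p and miR-199a-5p ranked 24, 40 and 53. Without ZT22 the ranks were 24 for miR-199b*, 46 for miR-143, 61 for miR-199a-3p and 64 for miR-199a-5p, at log2 SDs of 0.19, 0.15, 0.12 and 0.11 beside a median of 0.10 over all tested entries.

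The shared feature of the members was their high level in the ZT22 pool, late in the first dark phase. miR-199b* measured 48.5 units at ZT22, against 28.6 ± 3.79 (SD) in the 11 other pools, and the next highest pool, ZT18, had 34.7. miR-143 measured 62.7 units at ZT22, against 42.1 ± 4.39 in the 11 others, with 49.4 at ZT18 as the next. No other pool reached these values. miR-199a-3p measured 149 units at ZT22, against 112 ± 9.18 in the 11 others, and its next was 129 at ZT34. For miR-199a-5p the ZT22 pool had 46.5 units, against 36.3 ± 2.75 in the others, with 41.3 at ZT42 next. The gap to the next pool was 7.08, 3.95, 3.2 and 2.59 times the combined SE over spots for miR-199b*, miR-143, miR-199a-3p and miR-199a-5p, an error that leaves out labelling and hybridisation.

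In log2 units the ZT22 value exceeded the mean of the other 11 arrays by 0.77 for miR-199b*, 0.58 for miR-143, 0.41 for miR-199a-3p and 0.36 for miR-199a-5p. These were the 4 highest of the 109 tested entries never at the floor. Next came miR-497 and miR-195, which share a hairpin cluster, at 0.34 and 0.30, then miR-185 and miR-338-3p at 0.29 and 0.28. Entries at the floor on some arrays stand outside this rank. Among them, miR-200a and miR-200b had larger excesses than any member, 1.00 and 0.92. ZT22 was the highest array for 26 of the 109 entries, 23.9%, and ZT34 and ZT50 for 22 each, so 4 of 4 members there stands beside a background of 23.9%. Over the 133 entries not at the floor on every array, ZT22 was the highest for 29, 21.8%. An excess of 0.25 or more was met by 4 of 4 members and by 9 of the 109 entries, 8.26%. The 4 members are themselves among the 26, the 29 and the 9 entries of these counts. Since the members were chosen with earlier results known, these counts are a description. The median entry moved by 0.00 at ZT22 with this scaling. This is 1 pool on 1 array. Dixon's outlier test within the 6 dark pools set the gap below the highest value, ZT22, against the range. The ratio was 0.47 for miR-143, 0.438 for miR-199b*, 0.428 for miR-199a-3p and 0.312 for miR-199a-5p. All lay under the critical value of 0.625, so ZT22 was not flagged. Its difference from all 11 other pools was not tested. ZT46 was taken 24 h later at the same clock time. Its log2 difference from the mean of the other 11 arrays was 0.10 (miR-143), -0.08 (miR-199a-3p), -0.04 (miR-199a-5p) and -0.01 (miR-199b*).

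**Figure D2:**
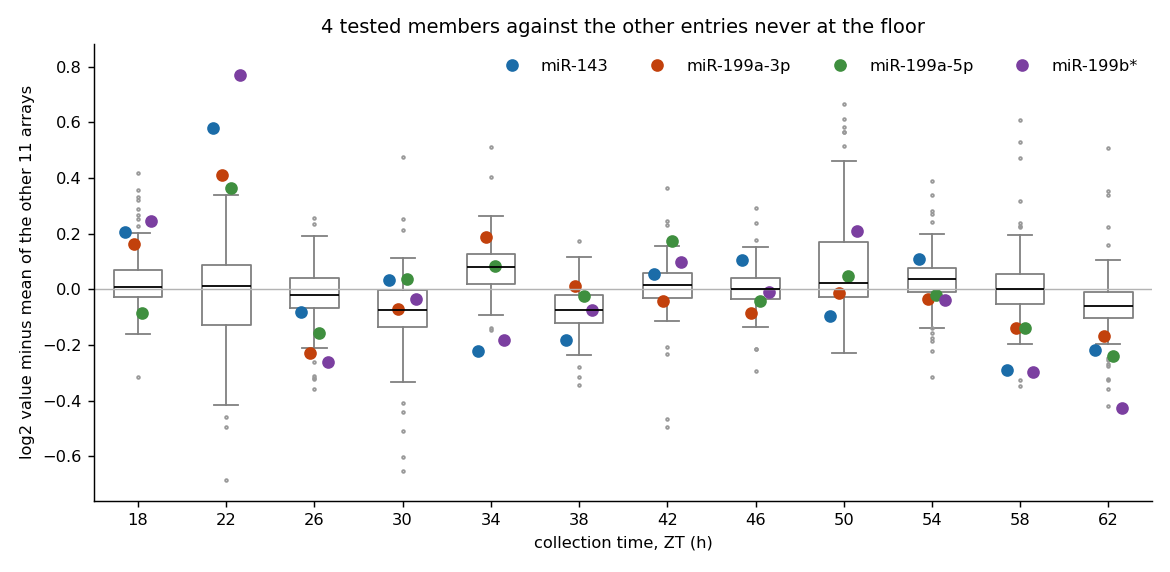
Log2 value on each array minus the mean of the other 11 arrays, by collection time (ZT, h). Boxes show the other entries never at the floor (quartiles, whiskers to 1.5 interquartile ranges, dots beyond) and coloured points the 4 tested members; at ZT22 the members lie between 0.36 and 0.77, above all other entries shown.

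The height of the ZT22 values depended on the processing. With all-probe, no or quantile scaling, the members stayed highest at ZT22 and lay 0.31 to 0.78 log2 units above the median entry. Normexp starts from raw spot and background medians and brings an offset of 50 units and a higher floor. With it the members were highest at ZT58, and at ZT22 they lay 0.07 to 0.32 above the median entry. Against the mean of the other arrays, ZT22 then stood at 0.00 for miR-143 and 0.09 for miR-199a-3p. It was -0.16 for miR-199a-5p, -0.02 for miR-199b* and -0.23 for the median entry. The next values are also differences from the mean of the other arrays. The software's own sum over probes, the total gene signal, gave 0.56 for miR-143, 0.35 for miR-199a-3p, 0.30 for miR-199a-5p and 1.14 for miR-199b*. The mean of both probes gave 0.63, 0.41, 0.18 and 0.39 for the same miRNAs. The second probes of miR-199a-5p and miR-199b* reached at most 9.67 and 17 units, under the floor of 22.2 units on every array. They were therefore constant in that mean, and the lower values of these 2 miRNAs follow from the floor alone.

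Markers of other cell types on the same array were set beside the members. Of 5 epithelial miRNAs, which in liver mark bile duct cells, 2 were tested, and both were highest at ZT22. miR-200a had 49.4 units there, against 22.2 to 35.5 in the other pools, and miR-200b 49.5, against 22.2 to 36; each lay at the floor on 3 arrays. Their log2 excess was 1.00 and 0.92. miR-141 and miR-200c were detected on 0 arrays and miR-429 on 2. The summed level of the mesenchymal list was 306.4 units at ZT22, against 195 to 246.2 in the other pools, and that of the 2 epithelial entries 98.94, against 44.35 to 71.49.

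The endothelial, red cell, leukocyte and hepatocyte lists had summed levels at ZT22 within the range of the other pools. The endothelial, red cell and hepatocyte sums are mostly 1 entry each. These are miR-126-3p, miR-451 and miR-122, at geometric means of 1330, 1800 and 31500 units. The endothelial miR-126-3p and miR-126-5p were at 0.04 and -0.06, with a summed level of 1453 at ZT22, against 1344 to 1484 elsewhere. For the red cell miR-451 and miR-144 the values were -0.03 and 0.00 (summed 1877, against 1417 to 2788). The 4 tested leukocyte miRNAs lay between -0.25 and 0.13 (summed 533.2, against 460.5 to 570.1), with miR-142-3p at 0.13 and miR-142-5p at 0.11. The hepatocyte miRNAs miR-122, miR-192, miR-194 and miR-148a lay between -0.04 (miR-122) and 0.10, with miR-192 at 0.08 (summed 36840, against 35270 to 39020). Striated muscle miRNAs (miR-1, miR-133a, miR-133b, miR-206 and miR-208a) were detected on 0 arrays. Which cells the ZT22 pool held was not measured, and the part of the epithelial markers in its values was not tested.

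**Figure D3:**
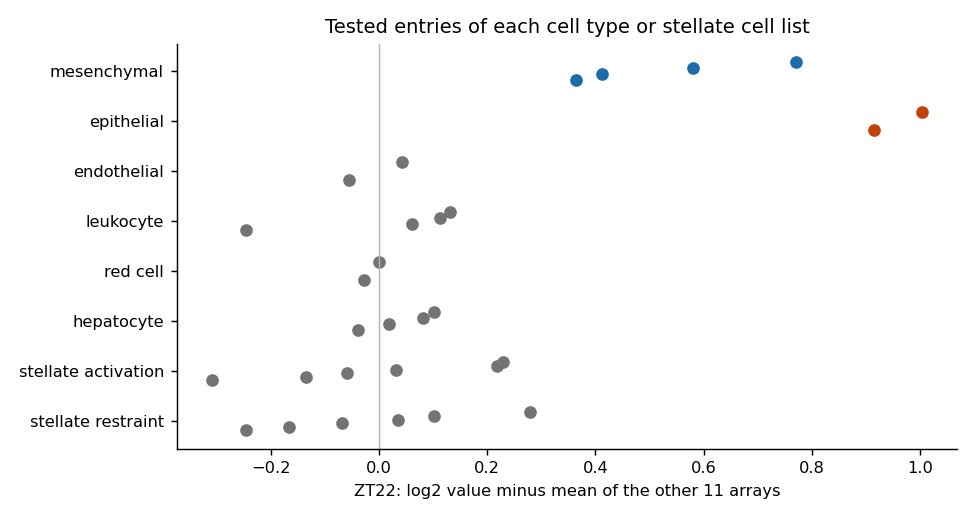
ZT22 log2 value minus the mean of the other 11 arrays (horizontal axis) for each tested entry of 8 lists of miRNAs (rows). The 4 mesenchymal entries (0.36 to 0.77) and the epithelial miR-200a and miR-200b (1.00 and 0.92) lie to the right of all entries of the other lists.

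A pair of further lists follows reports on stellate cells. Of 7 miRNAs tied to their activation, 6 were tested, with a median ZT22 excess of -0.01 and a range from -0.31 for miR-21 to 0.23 for miR-27a. Their summed level was 7901 units at ZT22, below the 8995 to 9980 of the other pools, and miR-21 is the bulk of it at a geometric mean of 8700. Of 9 tied to quiescence or to restraint of fibrosis, 6 were tested, with a median of -0.02, from -0.25 for miR-146a to 0.28 for miR-29b, whose family represses collagen messages; its relative miR-29a was at 0.035. None of these entries (0) passed in limma for 24-h rhythm, clock time, dark against light or cycle.

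Over the 12 pools all 6 pairs of members had a positive r. miR-143 and miR-199b*, from different transcripts, had r = 0.88 (permutation p = 0.00069, adjusted p = 0.00414 over 6 pairs) and rho = 0.78 (permutation p = 0.00358, adjusted 0.0215). For miR-199a-5p with miR-199b* r was 0.82 (permutation p = 0.00189, adjusted 0.00567) and rho 0.64 (permutation p = 0.0294, adjusted 0.0468). For miR-199a-3p with miR-199b* r was 0.80 (permutation p = 0.00351, adjusted 0.00702) and rho 0.63 (permutation p = 0.0312, adjusted 0.0468). The 2 arms of the miR-199a hairpin had r = 0.77 (permutation p = 0.00471, adjusted 0.00706) and rho = 0.71 (permutation p = 0.0125, adjusted 0.0376). miR-143 with miR-199a-3p and with miR-199a-5p had r = 0.65 and 0.67 (adjusted permutation p = 0.0261 and 0.0258), but rho of only 0.34 and 0.33 (permutation p = 0.278 and 0.297).

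These relations rested largely on ZT22. Without it, over 11 pools, r was 0.71 for miR-143 with miR-199b* (permutation p = 0.0166, adjusted 0.0997), 0.61 for miR-199a-5p with miR-199b* (permutation p = 0.0461, adjusted 0.138), 0.55 for miR-199a-3p with miR-199b* (permutation p = 0.0808) and 0.51 for the arms of miR-199a (permutation p = 0.106). It was 0.22 and 0.28 for miR-143 with miR-199a-3p and miR-199a-5p, so 0 of 6 pairs passed the adjusted test. Without the 2 pools farthest from the median of the first member, r was 0.82 for miR-199a-3p with miR-199b* (adjusted permutation p = 0.0192), 0.65 for miR-143 with miR-199b*, 0.42 for both miR-199a-5p with miR-199b* and the 2 arms, and 0.12 and 0.16 for the remaining pairs. Within slide 1, which held 8 pools and ZT22, r lay between 0.59 and 0.94, and the highest, miR-143 with miR-199b*, had an exact permutation p of 0.00181 (adjusted 0.0109). Slide 2 held 4 pools, too few for a correlation. All values share the scaling of their array.

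By pattern over the 12 arrays, the entries most like each member among the 132 others that varied were as follows, with r as a description and its value without ZT22 after it. For miR-143 they were miR-199b* (0.88, without ZT22 0.71), miR-338-3p (0.82, without ZT22 0.68) and miR-26a (0.79, without ZT22 0.47). For miR-199b* they were miR-143 (0.88, without ZT22 0.71), miR-200a (0.86, without ZT22 0.62) and miR-200b (0.84, without ZT22 0.61). miR-199a-3p was closest to miR-497 (0.88, without ZT22 0.79), miR-200b (0.86, without ZT22 0.68) and miR-199b* (0.80, without ZT22 0.55). For miR-199a-5p they were miR-200b (0.88, without ZT22 0.75), miR-130a (0.82, without ZT22 0.59) and miR-199b* (0.82, without ZT22 0.61). The arms of the shared hairpin were not each other's nearest: miR-199a-5p ranked 7 for miR-199a-3p, and miR-199a-3p ranked 6 for miR-199a-5p. For miR-143, miR-199a-3p ranked 11 and miR-199a-5p 10, and miR-143 ranked 15 and 12 for them. Without ZT22, miR-143 and miR-199b* still ranked 1 for each other (r = 0.71), while the arms ranked 18 and 10. miR-199a-3p and miR-199a-5p then ranked 41 and 28 for miR-143, and miR-143 ranked 68 and 54 for them.

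Whether the members followed the day was asked in several ways, since the study is about the circadian clock. None of the 4 passed any test. The 24-h test set a cosine and a sine of 24 h against the log2 values with limma's moderated F test, and 0 of 139 entries, 0%, had an adjusted p under 0.05, with 5 (3.6%) at an unadjusted p under 0.05, miR-143 among them. The fitted peak-to-trough fold was 1.10 for miR-199a-3p (upper 95% limit 1.44, adjusted p = 0.99 in limma) and 1.11 for miR-199a-5p (upper limit 1.41, adjusted p = 0.957 in limma), beside a median of 1.07 over entries never at the floor. It was 1.34 for miR-143 (upper limit 1.76) and 1.42 for miR-199b* (upper limit 2.07), with fitted maxima 22.3 and 22.1 h after lights on and an adjusted p of 0.849 each in limma. On the log2 scale the fitted peak-to-trough differences without ZT22 were 0.28 (miR-143), 0.09 (miR-199a-3p), 0.04 (miR-199a-5p) and 0.31 (miR-199b*). The upper limits hold for the chosen scaling. With all-probe scaling the fitted log2 difference was 0.546 for miR-199a-3p, and with normexp 0.729 for miR-199a-5p (adjusted p of 0.869 and 0.696 in limma). Both are past those limits once the limits, given as folds, are put on the log2 scale. These settings also moved the median of all tested entries, with dark minus light at 0.38 and -0.36.

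In cycle 2 miR-143 had 40.8 units at 2 h after lights on, 46.5 at 6 h, 36 at 10 h, 37.8 at 14 h, 44.9 at 18 h and 46.3 at 22 h. In cycle 1 it had 41.2 units at 2 h, 44.3 at 6 h, 37.7 at 10 h, 38.6 at 14 h, 49.4 at 18 h and 62.7 at 22 h. The lowest values lay at 10 and 14 h in both cycles, and apart from 22 h the pools of a clock time differed by at most 1.10-fold. The profile over clock times had r = 0.80 between cycles (exact permutation p = 0.0444 over 720 orders, n = 6 clock times; adjusted p = 0.178 over 4 members) and rho = 0.83 (exact permutation p = 0.0583). Without the 22 h pair r was 0.89 (exact permutation p = 0.0417, n = 5), and without the 2 clock times farthest from the median of cycle 1 it was 1.0 over 4. With normexp r was -0.14.

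For the other members the cycles differed more. miR-199b* had 29.5 units in cycle 2 and 48.5 in cycle 1 at 22 h, and 33.9 in cycle 2 and 25.2 in cycle 1 at 2 h; its r between cycles was 0.18 (exact permutation p = 0.783, n = 6). miR-199a-3p had 109 units in cycle 2 and 149 in cycle 1 at 22 h, and 105 in cycle 2 and 129 in cycle 1 at 10 h, with r = -0.37 (exact permutation p = 0.458, n = 6). For miR-199a-5p the 22 h pools had 35.9 units in cycle 2 and 46.5 in cycle 1, and r was -0.28 (exact permutation p = 0.606, n = 6). Adjusted over the 4 members, these p-values were 0.783 each, and rho was 0.03, -0.60 and -0.54 (exact permutation p = 1, 0.242 and 0.297).

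**Figure D4:**
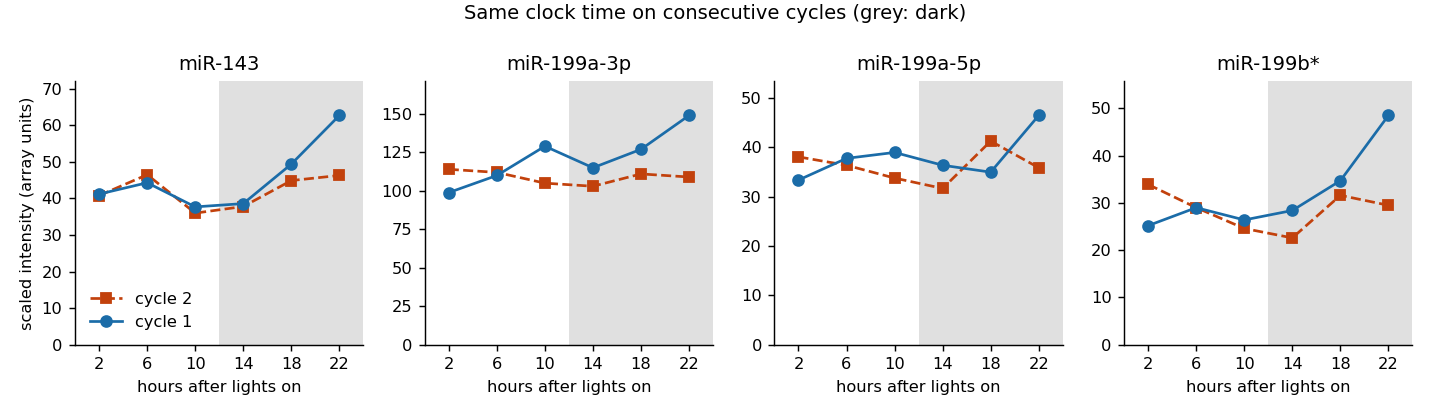
Scaled intensity (array units, from 0) of the 4 tested members against hours after lights on, 1 pool a point, with cycle 2 as squares and cycle 1 as circles (grey: dark). For miR-143 the cycles lie close together except at 22 h (46.3 in cycle 2, 62.7 in cycle 1), and the other members differ between cycles at 22 h as well.

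In limma's F test over clock times, 0 of 139 entries passed, 0%, and 6 (4.32%) had an unadjusted p under 0.05, among them miR-143. Its clock-time means spanned 1.46-fold (adjusted p = 0.805 in limma). Leaving out ZT46, so that ZT22 alone stood for its clock time, gave miR-143 a span of 0.77 log2 units and an adjusted p of 0.0485 in limma. The 22 h group is then 1 pool, the one singled out above, and the other clock times supply its spread. Leaving out ZT22 gave a span of 0.36 and an adjusted p of 0.28 in limma. The spans of miR-199b*, miR-199a-3p and miR-199a-5p were 1.49-, 1.2- and 1.2-fold (adjusted p = 0.805, 0.881 and 0.881 in limma), beside a median of 1.14-fold over entries never at the floor. The count of 0 became 8 without ZT26, 2 without ZT46, and 1 each without ZT54 or ZT58.

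Dark pools were then set against light pools, which for nocturnal mice also separates activity and feeding from rest. The groups overlapped for every member. miR-143 measured 37.8, 45.6 and 62.7 units (lowest, median and highest) in the 6 dark pools, against 36, 41 and 46.5 in the 6 light pools, 1.12 times as much in the dark (95% interval 0.937 to 1.35). miR-199b* measured 22.6, 30.5 and 48.5 units in the dark, against 24.6, 27.7 and 33.9 in the light, a fold of 1.14 (0.892 to 1.45). The highest dark value is ZT22 in both.

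miR-199a-3p measured 103, 113 and 149 units in the dark, against 98.9, 111 and 129 in the light, a fold of 1.07 (0.927 to 1.22). For miR-199a-5p the values were 31.7, 36.2 and 46.5 in the dark, against 33.4, 37.1 and 39 in the light, a fold of 1.03 (0.906 to 1.18). Dark pools lay above the light mean in 5 of 6 cases for miR-199b*, 4 for miR-143 and miR-199a-3p, and 3 for miR-199a-5p. None passed: the adjusted p was 0.74 for miR-143, miR-199a-3p and miR-199b* and 0.938 for miR-199a-5p in limma, and a two-sided exact permutation test over all splits into 6 and 6 gave p = 0.21, 0.372, 0.299 and 0.641 for miR-143, miR-199a-3p, miR-199b* and miR-199a-5p. In all, 0 of 139 entries passed, 0%, and 11 (7.91%) had an unadjusted p under 0.05; without ZT30, 2 passed. The median dark minus light difference was 0.13 log2 units over the 4 members and -0.02 over all tested entries. Without ZT22 the differences of the members were 0.08 (miR-143), 0.03 (miR-199a-3p), -0.02 (miR-199a-5p) and 0.06 (miR-199b*). Within slide 1 (5 dark and 3 light pools) they were 0.22, 0.12, 0.08 and 0.34, and with slide as a block 0.13, 0.06, 0.01 and 0.14, none of them called; slide 2 held 1 dark pool. With normexp all 4 members were lower in the dark, with log2 differences of -0.364 and -0.232 for miR-143 and miR-199a-3p and -0.425 and -0.392 for miR-199a-5p and miR-199b*, none of them called, beside -0.36 for the median entry.

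**Figure D5:**
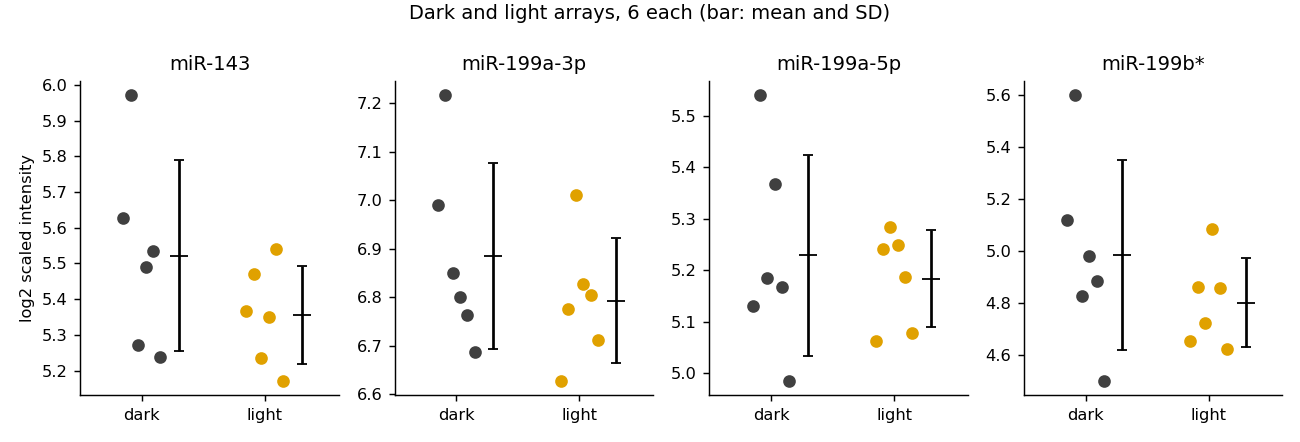
Log2 scaled intensity of the 4 tested members in the 6 dark and 6 light pools, 1 point a pool, with mean and SD as bars and axes that do not start at 0. The groups overlap in every panel, and the highest dark point is ZT22 in each.

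Cycle 2 was compared with cycle 1 within clock times. All 4 members had lower means in cycle 2, or higher ones with normexp, and none passed. The fold of cycle 2 over cycle 1 was 0.931 for miR-143 (95% interval 0.829 to 1.05), where the cycle 2 pools averaged 5.39 ± 0.16 and the cycle 1 pools 5.49 ± 0.28 on the log2 scale (SD, 6 pools each). It was 0.904 for miR-199a-3p (0.776 to 1.05), 0.954 for miR-199a-5p (0.816 to 1.11) and 0.906 for miR-199b* (0.711 to 1.16). Cycle 2 was higher in 1 of 6 pairs for miR-143 and miR-199b*, and in 2 of 6 for both arms of miR-199a. The adjusted p in limma was 0.866 for miR-143, miR-199a-3p and miR-199b* and 0.867 for miR-199a-5p, where 0 of 139 entries passed, 0%, and 5 (3.6%) had an unadjusted p under 0.05. Without ZT22 the log2 differences were -0.04, -0.08, -0.01 and -0.03 for miR-143, miR-199a-3p, miR-199a-5p and miR-199b*. With slide as a block they were -0.29, -0.32, -0.07 and -0.43, the same as within slide 1. There only the 18 h and 22 h clock times have both cycles, and the 22 h pair is ZT46 against ZT22. In the same order of members, the 22 h pair gave -0.44, -0.45, -0.37 and -0.72. The 18 h pair gave -0.14, -0.19, 0.24 and -0.14. Cycle and slide overlapped in part.

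Herpesvirus entries on the array show what signal arose where the mouse genome holds no such miRNA. Infection is not mentioned in the sources used here. Of the 39 such entries, most were called detected on fewer than 6 arrays and entered no test. Among the few tested, mcmv-miR-m22-1 lay at the floor on 11 arrays. The entries below were picked from the tested ones for a level near that of a member, so this likeness follows from the choice. mghv-miR-M1-2 was detected on all 12 arrays at a geometric mean of 29.9 units, beside 29.7 for miR-199b*, 36.9 for miR-199a-5p and 43.4 for miR-143, and was the herpesvirus entry nearest to each. On the log2 scale mcmv-miR-M23-1-5p, at 150 units, was nearest to miR-199a-3p (114), while in array units mcmv-miR-m88-1 (86.3) was nearer. At ZT22 mghv-miR-M1-2 and mcmv-miR-M23-1-5p were below the mean of the other arrays (log2 differences of -0.14 and -0.46). Their highest arrays were ZT58 and ZT34. How much of the dim members' signal is unspecific was not tested.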

How the data were processed

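One-colour Agilent miRNA arrays were read from the deposited scanner files. Their values are spot intensities on a linear scale, the processed signal of Agilent Feature Extraction (per the file headers), version 10.7.3.1 per the file headers and 9.5.3.1 per the submitters' processing notes. The series value table held the same deposited intensities (largest difference 0). Flags of each spot are the scanner software's. Outlier and control spots were left out and spots of a probe averaged. Arrays were scaled to the 75th percentile over 157 probes detected on all arrays (over 50% of spots well above background), floored at 22.2 units and put on the log2 scale. The brightest probe stood for an entry. The 139 entries called detected on 6 arrays or more went into limma 3.58.1 in R 4.3.3 (eBayes with intensity trend, Benjamini-Hochberg over 139). Correlations used 100000 permutations, or all orders under 10 points (NumPy 2.4.6). Tests were tried on simulated data. Normexp used spot medians in place of the planned spot means. Alternatives were scaling, background, floor, filter, probe summary, variance trend, slide and single arrays. Members and lists were chosen with earlier results of these data known. Named entries are the members, other arms of their hairpins, their 3 nearest by r, the first 2 detected entries of the lists and the nearest herpesvirus entries; the entries next in rank at ZT22 and the lists' extremes were named after their values were seen. The genome build of the array design is not given in the sources used here, and coordinates and sequences are RefSeq's (GRCm38.p6). Replicates are pools taken 24 h apart.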

Additional observations from a re-analysis of the deposited data

Results flagged for a closer look

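miR-214, which entered no test, was called detected by the scanner software at ZT22 alone, where its brighter probe measured 13.8 units; the other 11 arrays lay between 6.58 and 13.5. None of the 10 spots of that probe (0 of 10) was well above background at ZT22, and the highest negative control probe of that array had 3.62 units. What flagged it is a detected call in an entry outside the comparisons. The brighter probe of miR-145, not called detected, also lay above that control level at ZT22, at 7.56 units. miR-214 lay above the highest negative control probe at ZT18, ZT30, ZT34 and ZT62 as well, where it was not called detected. The difference of miR-214 at ZT22 was not tested.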

How the results depend on the processing

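The members passed no test of rhythm, dark against light or cycle under any of the 25 alternatives, and of clock time only miR-143 without ZT46 (0.767 log2 units, adjusted p = 0.0485 in limma). Counts of entries past the threshold stayed at 0 except for 24-h rhythm with normexp (1) and for clock time with normexp (1) and on slide 1 alone (3). Leaving out single arrays gave 0 to 8 for clock time (8 without ZT26), 0 to 2 for dark against light (2 without ZT30), and 0 for rhythm and cycle. With normexp, signs turned: dark minus light became -0.364 (miR-143), -0.232 (miR-199a-3p), -0.425 (miR-199a-5p) and -0.392 (miR-199b*), and cycle 2 minus cycle 1 became 0.385, 0.202, 0.405 and 0.427. The medians of all tested entries were -0.36 and 0.36 there, and 0.38 and -0.50 with all-probe scaling. Without ZT22, dark minus light of miR-199a-5p was -0.017. Over single arrays left out, dark minus light ranged from 0.077 to 0.223 for miR-143, 0.025 to 0.135 for miR-199a-3p, -0.017 to 0.094 for miR-199a-5p and 0.061 to 0.281 for miR-199b*, and the clock-time span of miR-143 from 0.355 to 0.767. Scaling moved fitted sizes by more: the clock-time spans were 0.775 to 1.151 with all-probe scaling and 0.924 to 1.336 with normexp, and the 24-h differences 0.45 to 0.687 and 0.465 to 0.729, none of them called.

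The r between cycles changed sign for miR-199a-3p with all-probe scaling (0.56), quantile normalization (0.17) and normexp (0.26), for miR-199a-5p under the same settings (0.21, 0.06 and 0.48), for miR-199b* without scaling (-0.16), with normexp (-0.15) and without the 2 farthest clock times (-0.50), and for miR-143 with normexp (-0.14); the cause was not tested. Pair correlations lost their call without the 2 farthest pools in all pairs but miR-199a-3p with miR-199b*: miR-143 with miR-199a-3p 0.12, with miR-199a-5p 0.16 and with miR-199b* 0.65, the arms of miR-199a 0.42, and miR-199a-5p with miR-199b* 0.42. On slide 1 alone the calls of 5 pairs were lost at r of 0.59, 0.60, 0.72, 0.79 and 0.75 (miR-143 with miR-199a-3p and miR-199a-5p, the arms, and miR-199b* with miR-199a-3p and miR-199a-5p), with fewer pools. Without ZT22, chosen after seeing the data, all 6 were lost, at 0.22 and 0.28 (miR-143 with miR-199a-3p and miR-199a-5p), 0.71 (miR-143 with miR-199b*), 0.51 (the arms), 0.55 and 0.61 (miR-199b* with miR-199a-3p and miR-199a-5p). The 12 pools are of separate livers, so no paired analysis was made beyond the comparison of cycles within clock times. The labels give no replicate numbers. Among the 4 tested members signal over background limits miR-199b* most, with over 50% of its spots well above background on 8 of 12 arrays.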
